A study of Mus musculus with 27 samples.

Results

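Contractile mural and sheath cells are the smooth muscle-type cells of the skin. In the single-cell libraries of AnaVI back skin they were taken as cells that passed the filters (at least 500 genes, at least 1000 UMIs and under 10% mitochondrial UMIs) and held at least 3 UMIs of Acta2 and at least 3 UMIs of Tagln, with Krt5 and Krt14 together under 0.1% of UMIs and at most 1 UMI of Pecam1 and Cdh5 together. A UMI, or unique molecular identifier, marks a captured transcript. The rule kept 792 of 28373 cells, 349 of 14458 in mouse 1 (2.41%, exact binomial 95% interval 2.17 to 2.68) and 443 of 13915 in mouse 2 (3.18%, 2.90 to 3.49). All intervals cover counting error only. The cells were thus chosen by their UMIs of Acta2, Tagln, Krt5, Krt14, Pecam1 and Cdh5, and every grouping below was made from UMIs of the same cells, so the values are descriptions and no test was made. Paired values are given throughout as mouse 1 and then mouse 2.

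Both mice were wild-type and untreated, and their back skin was taken in AnaVI (full anagen, the growth phase of the hair cycle) at P32. Cells were freed with collagenase and then trypsin and sorted for absence of CD45, CD31, CD140a and CD117. The shares above are thus shares of a sorted suspension, not of skin. The sort was directed against immune, endothelial, Pdgfra-positive and Kit-positive cells, and how far it depleted them was not measured. Not all such cells were removed, since 5910 and 5972 of the cells that passed, with Pdgfra at 300.1 and 425 CPM (UMIs per 1000000 UMIs), were other fibroblasts, defined as at least 1% of UMIs from Col1a1, Col1a2, Col3a1 and Dcn with at most 1 UMI of Acta2 and Tagln together. The only other single-cell matrices used were cultured hair follicle stem cells of 2 mice, in which 0 of 262 and 0 of 94 cells that passed met the rule. The AnaVI libraries held 145318618 and 167258677 UMIs, and the contractile cells had medians of 9368 and 11646 UMIs and of 3364 and 3857 genes. The libraries shared 62 barcodes, and no barcode was a contractile cell in both.

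Pericytes and vascular smooth muscle cells lie on the outside of vessels and set their calibre, arrector pili muscles lift the hairs, and the dermal sheath is a contractile connective tissue sleeve around the hair follicle. All of them build force from actin, including smooth muscle actin (Acta2), sliding on myosin, and Myh11 is the smooth muscle myosin. Myosin light chain kinase (Mylk) is the switch. Calponin (Cnn1), transgelin (Tagln) and tropomyosins (Tpm1, Tpm2) lie on the actin filament, and calcium and cyclic GMP are opposing signals. Rgs5, a regulator of G protein signalling, is a classical pericyte marker.

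Genes of this contractile programme are known targets of serum response factor, which binds a CArG box, CC followed by 6 letters that are each A or T and then GG, and which works with myocardin in smooth muscle. Promoters are shown for the genes of a list of 26 contractile genes that held such a box in the 250 bases before the RefSeq start (GRCm38.p6), allowing 1 other letter among the 6. The motif reads the same way on both strands. A promoter was found for 22 of the 26 genes, of which 4 (18.2%) held a box with at most 1 other letter and 2 (9.09%) an exact one, beside 8.65% and 1.40% of all 27025 promoters in the table. None of the matched promoters of the pericyte list (10) or the smooth muscle list (8) held one, which says only that these letters were not in these windows. The box is in capitals, with 10 bases on each side, 5′ to 3′ on the strand of the gene.
Acta2, box starting 84 bases before the start, chr19:34255438-34255467, minus strand: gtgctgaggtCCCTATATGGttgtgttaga
Acta2, box starting 34 bases before the start, chr19:34255388-34255417, minus strand: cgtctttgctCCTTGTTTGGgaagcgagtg
Myl9, exact box starting 161 bases before the start, chr2:156775293-156775322, plus strand: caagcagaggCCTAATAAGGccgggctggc
Myl9, box starting 99 bases before the start, chr2:156775355-156775384, plus strand: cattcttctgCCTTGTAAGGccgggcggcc
Pdlim3, box starting 100 bases before the start, chr8:45885377-45885406, plus strand: tctctcacttCCAAAGTTGGagctctcctt
Vcl, exact box starting 227 bases before the start, chr14:20929161-20929190, plus strand: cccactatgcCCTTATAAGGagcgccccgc
Both Acta2 windows lie within an exon of the GENCODE M21 annotation. A match is a description of the letters and not a bound site.

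The thresholds of the rule removed different neighbours in turn. Acta2 of at least 3 UMIs was met by 948 and 1026 cells, and Tagln as well by 684 and 734. The keratin limit then took out 332 and 285 cells and the limit on Pecam1 and Cdh5 another 3 and 6. Acta2 was found widely at low counts, with an Acta2 UMI in 20.7% and 26.7% of all cells that passed, whereas the median contractile cell held 24 and 22 Acta2 UMIs and 12 and 14 Tagln UMIs. Just inside the limit, where the lower of the Acta2 and Tagln counts was 3, stood 37 and 54 cells, of which 8 and 19 had Rgs5 or Myh11. Just outside, where it was 2, stood 66 and 81 cells, of which 9 and 13 had Rgs5 or Myh11.

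The contractile cells were reported in 4 classes. The Rgs5/Myh11 class (at least 1 UMI of either gene, collagen under 1%) held 111 and 160 cells, or 31.8% and 36.1% of the contractile cells. The collagen class (Col1a1, Col1a2, Col3a1 and Dcn at least 1% of UMIs, no Rgs5 or Myh11) held 99 and 118 cells, 28.4% and 26.6%. A further 27 and 34 cells met both conditions (7.74% and 7.67%) and 112 and 131 met neither (32.1% and 29.6%). In all, 332 contractile cells had Rgs5 or Myh11 and 278 had collagen of at least 1%. Few cells lay at the collagen limit, with 6 and 9 cells between 0.9% and 1% and 3 and 9 between 1% and 1.1%.

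The classes differed in depth and in the share called doublets by Scrublet. The Rgs5/Myh11 class was the shallowest, with medians of 6342 and 9522 UMIs, against 13619 and 14985 in the collagen class and 14136 and 20521 in the cells that met both. Of the cells that met both, 51.9% and 23.5% were called doublets, whereas 5 of 111 and 2 of 160 cells of the Rgs5/Myh11 class and 5.76% and 2.21% of all cells that passed were. In the collagen class 19.2% and 5.93% were called doublets, against 6.94% and 2.63% of other fibroblasts. The part of doublets in the levels of these groups was not tested, and no doublet was removed from the values below.

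As judged by clustering of the 792 cells into 9 clusters, the label held for some of them and not for others. A pericyte-like cluster (22 and 22 cells) and a smooth muscle-like cluster (39 and 58) together made up 17.5% and 18.1% of the contractile cells. A dermal sheath-like cluster (22 and 30) and a cluster led by Corin and Stmn2 (40 and 63) made up 17.8% and 21.0%. The Corin/Stmn2 cluster was given no cell type, and the remaining clusters went against the mural and sheath label. A cluster with Timp1 and Postn among its leading genes (61 and 73) and a fibroblast-like cluster (38 and 33) made up 28.4% and 23.9%. Their fibroblast markers summed to 8024 and 7684 and 10537 and 9507 CPM. The contractile list without Acta2, Tagln and Myh11, which had chosen the cells or classes, summed to 6260 and 6160 and 7134 and 5562 CPM. A cluster with Csn3 and Lcn2 among its leading genes (84 and 78 cells) was given no cell type. It had the contractile list without Acta2, Tagln and Myh11 at 8939 and 8534 CPM and the pericyte list at 60.6 and 66.3 CPM. The pericyte list was at 5403 and 5571 CPM in the pericyte-like and 4963 and 6404 CPM in the smooth muscle-like cluster. The others were a keratinocyte-like cluster (38 and 76) and a cluster of 5 and 10 cells. The latter had Pax7, the transcription factor of skeletal muscle satellite cells, among its leading genes. Each cluster drew cells from both mice.

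**Figure D1:**
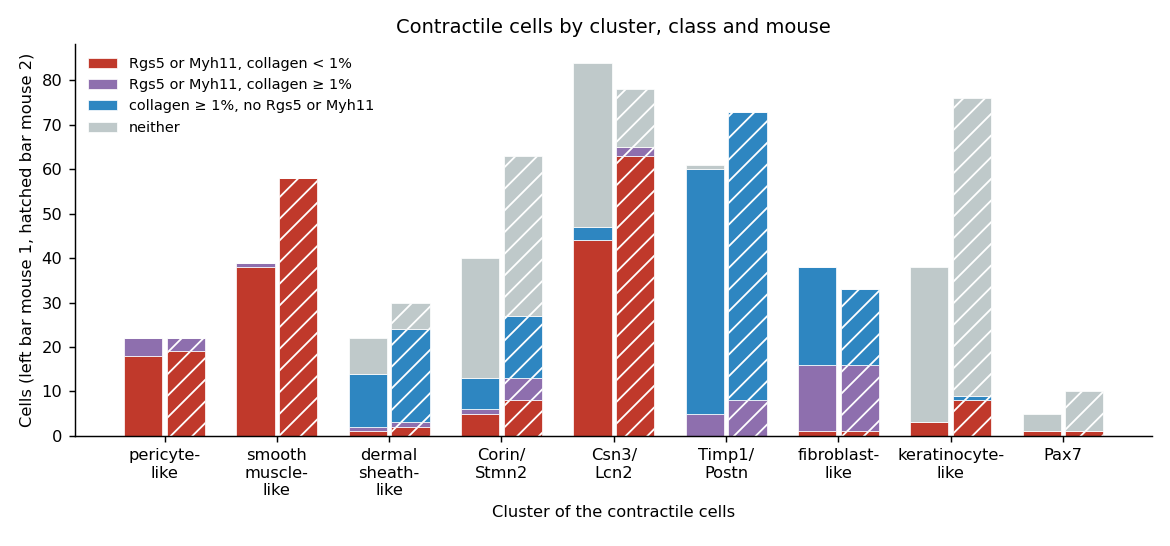
Number of contractile cells (vertical axis) in each cluster (horizontal axis), with the plain bar for mouse 1 and the hatched bar for mouse 2; colours stack the 4 classes. The pericyte-like and smooth muscle-like bars are almost all cells with Rgs5 or Myh11, the largest bar of that class belongs to the Csn3/Lcn2 cluster, and most of the collagen class sits in the Timp1/Postn bars.

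The classes therefore cut across the clusters. Of the 271 cells of the Rgs5/Myh11 class, 133 (49.1%) were in the pericyte-like and smooth muscle-like clusters and 107 (39.5%) in the Csn3/Lcn2 cluster. The split followed Rgs5: of the 115 cells of the class with an Rgs5 UMI, 98 (85.2%) were in the pericyte-like and smooth muscle-like clusters, while of the 156 cells without one, 105 (67.3%) were in the Csn3/Lcn2 cluster and had entered the class through Myh11. Of the 217 cells of the collagen class, 120 (55.3%) were Timp1/Postn cells, 39 fibroblast-like, 33 dermal sheath-like and 21 of the Corin/Stmn2 cluster. Cells that met neither condition were mainly keratinocyte-like (102 of 243), of the Corin/Stmn2 cluster (63) and of the Csn3/Lcn2 cluster (50).

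**Figure D2:**
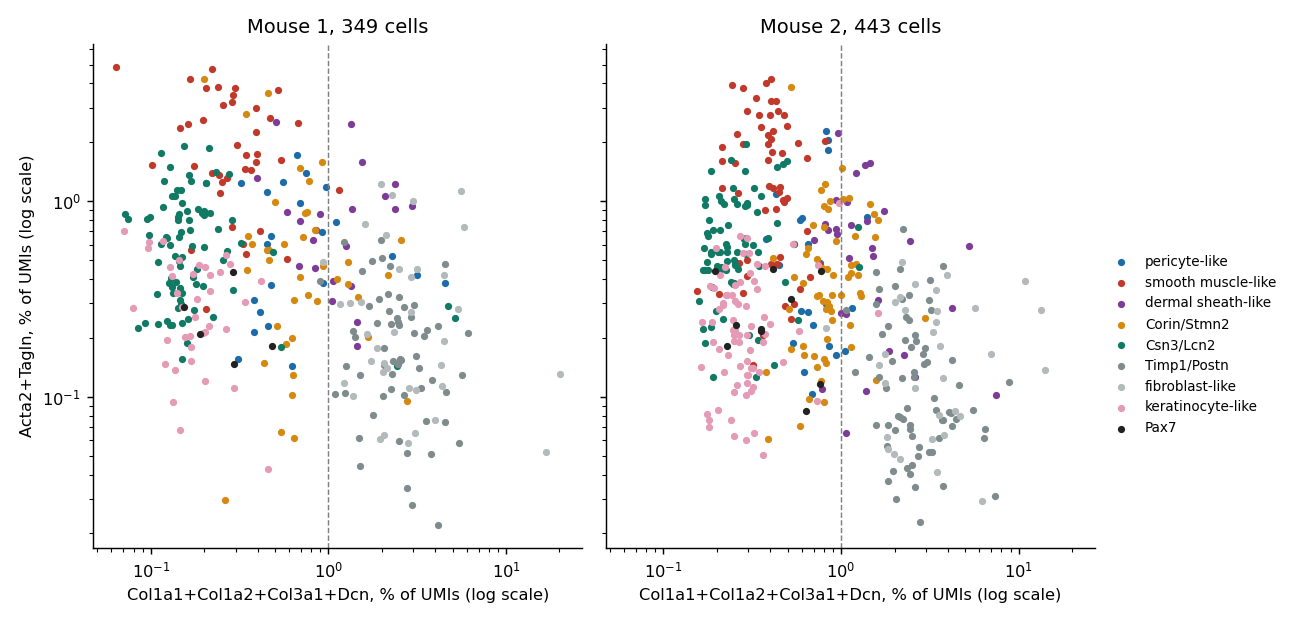
Each point is 1 contractile cell of mouse 1 (left) or mouse 2 (right), with the percent of its UMIs from Col1a1, Col1a2, Col3a1 and Dcn on the horizontal axis and the percent from Acta2 and Tagln on the vertical axis, both on log scales. The dashed line is the collagen limit of 1%; smooth muscle-like cells stand highest on the left of it, Timp1/Postn and fibroblast-like cells lie on the right with the lowest Acta2 and Tagln, and dermal sheath-like and Corin/Stmn2 cells lie on both sides.

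The smooth muscle-like cluster held the most contractile RNA. Levels are CPM, the UMIs of a gene summed over the cells of a cluster and mouse and scaled to 1000000 UMIs of those cells. The 23 contractile genes other than Acta2, Tagln and Myh11, which had chosen the cells or classes, summed to 33228 and 27156 CPM in the smooth muscle-like cluster. They summed to 17019.8 and 16753 CPM in the pericyte-like, 16995 and 14604 CPM in the dermal sheath-like, 14997 and 13028 CPM in the Corin/Stmn2 and 8939 and 8534 CPM in the Csn3/Lcn2 cluster, and to 2651 and 2627 CPM in all other cells. Acta2 (chr19:34241090-34255590, GRCm38) was at 12334 and 8963 CPM in the smooth muscle-like cluster, 6317 and 4426 CPM in the dermal sheath-like cluster, 4548 and 4414 CPM in the Csn3/Lcn2 cluster and 4518 and 4299.7 CPM in the pericyte-like cluster. In the Timp1/Postn cluster it was at 1264 and 775 CPM, the lowest of the clusters in mouse 2, and in all other cells at 91.3 and 85.4 CPM. The smooth muscle-like values of both mice lay above those of every other cluster, whereas the dermal sheath-like, Csn3/Lcn2 and pericyte-like values overlapped between mice.

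Myosin heavy chain fell more steeply than Acta2 from the smooth muscle-like to the pericyte-like and Csn3/Lcn2 clusters, whereas its partners varied. Myh11 (chr16:14194535-14291372) was at 2413 CPM (2205 to 2636) and 2327 CPM (2189 to 2471) in the smooth muscle-like cluster, with exact Poisson 95% intervals in parentheses. It was at 637 CPM (503 to 796) and 831 CPM (709 to 967) in the pericyte-like cluster and 279.8 CPM (247 to 316) and 386 CPM (354 to 420.3) in the Csn3/Lcn2 cluster. The intervals of these 3 clusters did not overlap. In the dermal sheath-like cluster Myh11 was at 31.0 and 108 CPM, beside 5.15 and 5.99 CPM in all other cells. There 1 cell of mouse 2 held 25 of its 33 UMIs. The Corin/Stmn2 cluster differed between mice, at 676 and 158 CPM, with 6 of 40 and 9 of 63 cells holding a Myh11 UMI. Single cells of mouse 1 held 51, 59, 70 and 85 of its 275 UMIs, and 1 cell of mouse 2 held 47 of 93. Lmod1, leiomodin, which nucleates actin filaments, was at 460.1 and 543 CPM in smooth muscle-like, 174 and 230.3 CPM in pericyte-like and 49.5 and 81.9 CPM in dermal sheath-like cells. Myocd, the myocardin that drives the programme, was at 142 and 129 and 66.2 and 120.1 CPM in the smooth muscle-like and pericyte-like clusters and at 0 and 0.720 CPM in the Csn3/Lcn2 cluster, so that the Csn3/Lcn2 cells carried Acta2, Myh11 and Cnn1 (199 and 237 CPM) with next to no Myocd or Des (1.06 and 0.720 CPM). Des, desmin, the muscle intermediate filament, was at 533 and 541 CPM in smooth muscle-like and 629 and 340.4 CPM in pericyte-like cells.

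**Figure D3:**
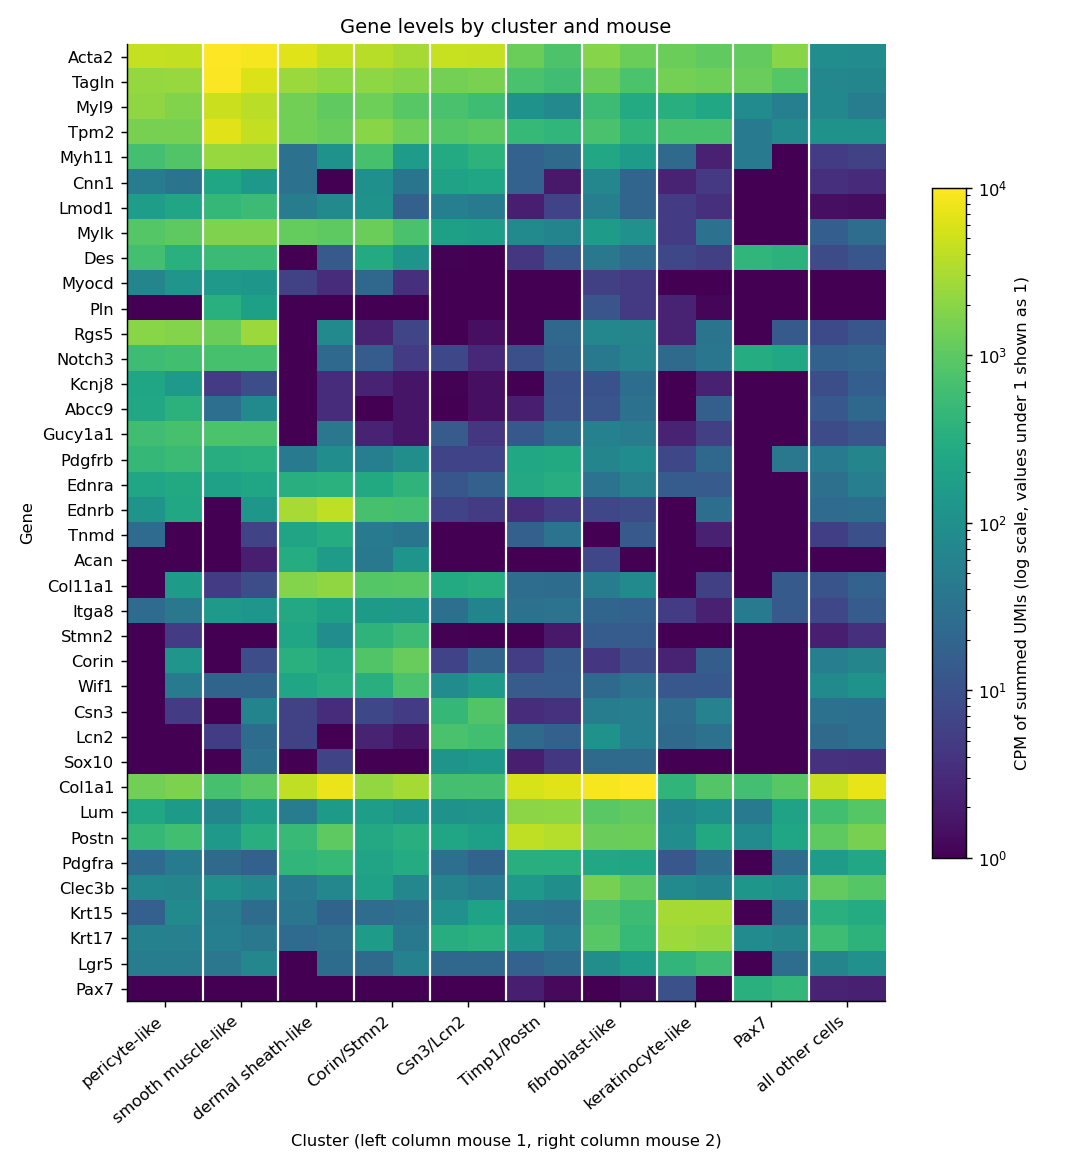
Levels of genes of the lists (rows) in each cluster and in all other cells (columns, mouse 1 left and mouse 2 right of each pair), coloured by CPM of summed UMIs on a log scale with values under 1 shown as 1. Rgs5, Notch3 and Gucy1a1 are bright in the pericyte-like and smooth muscle-like columns, Pln is bright in the smooth muscle-like columns, Ednrb, Tnmd, Acan and Col11a1 are brightest in the dermal sheath-like columns, and Csn3, Lcn2 and Sox10 are brightest in the Csn3/Lcn2 columns.

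Rgs5 (chr1:169655501-169695813) marked the pericyte-like and smooth muscle-like clusters. An Rgs5 UMI was found in 21 of 22 and 21 of 22 pericyte-like cells (95.5% and 95.5%) and in 24 of 39 and 39 of 58 smooth muscle-like cells (61.5% and 67.2%), beside 1.98% and 3.84% of all other cells, a share that free RNA can also give. With each cell thinned to 2000 UMIs the shares were 81.8% and 90.9% in pericyte-like, 53.8% and 58.6% in smooth muscle-like and 0.831% and 1.35% in other cells, with 385 and 684 shallower other cells left out and none of either cluster. The level in the pericyte-like cluster was 1961 CPM (1719 to 2227) and 1797 CPM (1616 to 1993) and in the smooth muscle-like cluster 1258 CPM (1109 to 1421) and 2504 CPM (2361 to 2653). The order of the clusters turned between the mice, with the pericyte-like cluster higher in mouse 1 and the smooth muscle-like cluster higher in mouse 2. In the Csn3/Lcn2 cluster 0 of 84 and 2 of 78 cells had an Rgs5 UMI, and in the dermal sheath-like cluster 0 of 22 and 1 of 30.

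The pericyte-like cluster was set apart from the smooth muscle-like one by the ATP-sensitive potassium channel. Kcnj8, its pore, was at 223 and 145 CPM in pericyte-like and 4.89 and 8.75 CPM in smooth muscle-like cells. Abcc9, its sulphonylurea receptor, was at 248 and 375 CPM against 29.4 and 78.8 CPM. Pln, phospholamban, which holds back the calcium pump of the sarcoplasmic reticulum, went the other way, at 348 and 186 CPM in smooth muscle-like cells with 0 UMIs in pericyte-like cells, where the limit taken for a count of 0, 3 UMIs, is 24.8 and 15.0 CPM. The clusters shared Notch3, the mural Notch receptor, at 563 and 606 CPM in pericyte-like and 695 and 694 CPM in smooth muscle-like cells. They also shared Gucy1a1, a subunit of the nitric oxide receptor guanylate cyclase, at 587 and 676 and 729 and 705 CPM. In the Csn3/Lcn2 cluster Notch3 was at 7.45 and 2.88 CPM and Pdgfrb, the PDGF receptor of mural cells, at 6.38 and 6.48 CPM, against 463 and 536 CPM in pericyte-like and 313 and 346 CPM in smooth muscle-like cells.

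Between the smooth muscle-like and pericyte-like clusters, 156 of 2970 genes compared (5.25%) were at least 2-fold higher and 139 (4.68%) at least 2-fold lower in both mice, on the ratio of CPM + 5 and among genes with at least 20 UMIs over both clusters in each mouse. Of the contractile list without Acta2, Tagln and Myh11, 7 of 23 were higher (Myl9, Myl6, Tpm2, Cnn1, Lmod1, Actn1 and Pdlim3) and Synpo2 was lower, with a median log2 ratio of 1.02 and 0.70. Of the pericyte list without Rgs5, 3 of 13 were higher (Cspg4, Cox4i2 and Gucy1b1) and 4 lower (Kcnj8, Abcc9, Vtn and Steap4), with a median log2 ratio of 0.30 and 0.06. The list as a whole did not set these clusters apart, with a sum of 4963 and 6404 CPM in smooth muscle-like and 5403 and 5571 CPM in pericyte-like cells. The genes furthest up were Tesc, tescalcin, a calcium-binding protein, at 504 and 335 CPM against 0 and 0 CPM, and Nrgn, neurogranin, which binds calmodulin, at 289 and 529.7 CPM against 0 and 0 CPM. P2rx1, the ATP-gated channel of arterial smooth muscle, was at 186 and 153 CPM against 0 and 0 CPM, and Kcnab1, a beta subunit of potassium channels, at 724 and 735 CPM against 41.4 and 45.0 CPM. Furthest down were Colec11, a collectin, at 0 and 4.38 CPM against 529.5 and 315 CPM, and Csmd1 at 4.89 and 59.1 CPM against 1134 and 1156 CPM. Adra2a, the alpha-2A adrenergic receptor, was at 4.89 and 4.38 CPM against 199 and 145 CPM, and Piezo2, a mechanically gated channel, at 4.89 and 6.57 CPM against 182 and 125 CPM.

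Secreted signals separated the same clusters. Of 11 growth factor and chemokine genes compared, 6 were lower in the smooth muscle-like cluster (Angpt2, Cxcl12, Ccl2, Ccl11, Cxcl1 and Il6) and Kitl, the ligand of Kit, was higher at 338 and 330.5 against 157 and 95.1 CPM. Il6, a cytokine, was at 348 CPM (250.5 to 469.7) and 205 CPM (147 to 278) in the pericyte-like cluster. Cxcl1, a neutrophil chemokine, was at 2739 CPM (2452 to 3050.2) and 265 CPM (199 to 347) there, and Ccl2 at 745 and 115 CPM, so that mouse 1 stood far above mouse 2 for both chemokines. The list of genes known to respond to tissue dissociation summed to 12039 and 5306 CPM in pericyte-like and 13406 and 8843 CPM in smooth muscle-like cells, with Fos at 2399 and 1036 and 3191 and 2296 CPM, against 6493 and 5725 CPM for the list in all other cells. The smooth muscle-like cells of both mice and the pericyte-like cells of mouse 1 thus stood above all other cells, and the pericyte-like cells of mouse 2 below them. The part of dissociation in these levels was not tested. Of 15 fibrillar matrix genes compared, without those of the classes, 6 were lower in the smooth muscle-like cluster (Col5a1, Col5a2, Col5a3, Col6a1, Col6a2 and Tnc), whereas Eln, elastin, was higher at 984 and 759 against 323 and 335 CPM.

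Markers of other cell types were present in part. The 10 fibroblast markers summed to 2168 and 936 CPM in pericyte-like and 998 and 834 CPM in smooth muscle-like cells, against 7737 and 8056 CPM in all other cells. The 8 endothelial markers summed to 157 and 135 CPM in pericyte-like and 220.2 and 210.1 CPM in smooth muscle-like cells, of which Esam alone made 132 and 130.1 and 220.2 and 197 CPM, against 35.8 and 39.6 CPM in all other cells. Cldn5, Tie1 and Emcn were at 0 UMIs in both clusters, as was Cdh5, which the rule had limited together with Pecam1. Flt1, a VEGF receptor, was among the leading genes of the pericyte-like cluster at 141 and 165 CPM and Cd93, also known from endothelium, among those of the smooth muscle-like cluster. The part of other cell types in these levels was not tested. In the smooth muscle-like cluster of mouse 2, 1 cell held 876 of 1012 UMIs of the melanocyte markers (86.6%) and 1 cell held 726 of 748 UMIs of the skeletal muscle markers (97.1%). Without that cell in each case the sums were 311 and 49.2 CPM in place of 2214 and 1636 CPM.

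The endothelin receptor Ednrb was highest in the dermal sheath-like cluster and next in the Corin/Stmn2 cluster. Endothelins are peptides that make smooth muscle contract, through Ednra in vascular smooth muscle. Ednrb (chr14:103814625-103844402) was at 3022 CPM (2760.1 to 3303) and 4147 CPM (3922 to 4382) in the dermal sheath-like cluster and at 691 CPM (612 to 776) and 633 CPM (569.9 to 700.2) in the Corin/Stmn2 cluster. It was at 116 and 240.3 CPM in pericyte-like and 0 and 129 CPM in smooth muscle-like cells, beside 24.9 and 27.7 CPM in all other cells. Few cells carried it there, 2 of 22 and 3 of 22 pericyte-like and 0 of 39 and 9 of 58 smooth muscle-like cells, with 1 cell holding 13 of 14 UMIs in the former of mouse 1 and 1 cell 35 of 59 UMIs in the latter of mouse 2. Both mice gave the same order at the top, with intervals that did not overlap between the dermal sheath-like cluster and any other. An Ednrb UMI was present in 22 of 22 and 30 of 30 dermal sheath-like cells and in 28 of 40 and 45 of 63 cells of the Corin/Stmn2 cluster (70.0% and 71.4%), against 5.32% and 8.11% of all other cells. At 2000 UMIs per cell these shares were 95.5% and 100%, 51.3% and 52.5% and 2.68% and 3.32%.

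Ednra was spread more evenly. It was at 322 CPM (241 to 422) and 364 CPM (299 to 438) in dermal sheath-like, 270.4 and 396 CPM in Corin/Stmn2, 223 CPM (147 to 325) and 270.3 CPM (203 to 353) in pericyte-like and 196 CPM (139.9 to 267) and 228 CPM (186 to 276) in smooth muscle-like cells, with 258 and 309 CPM in the Timp1/Postn cluster. The intervals of the pericyte-like and smooth muscle-like clusters overlapped in both mice. In the Csn3/Lcn2 cluster Ednra was at 11.7 and 16.6 CPM, below the 30.5 and 50.6 CPM of all other cells.

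**Figure D4:**
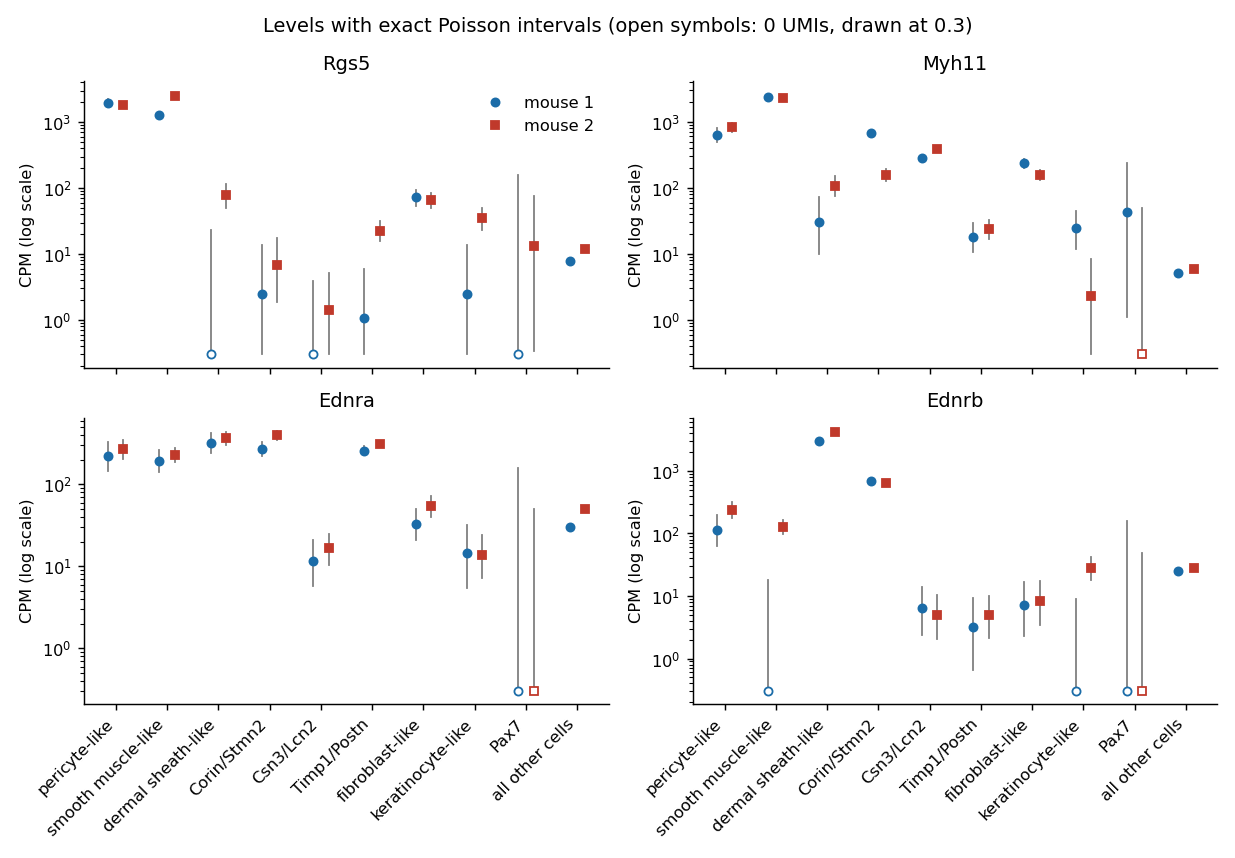
CPM of summed UMIs (log scale) of Rgs5, Myh11, Ednra and Ednrb in each cluster and in all other cells, with circles for mouse 1 and squares for mouse 2 and lines for exact Poisson 95% intervals; open symbols have 0 UMIs and stand at the foot of the axis. Rgs5 is highest in the pericyte-like and smooth muscle-like clusters, Myh11 in the smooth muscle-like cluster and Ednrb in the dermal sheath-like cluster, whereas Ednra is of similar height in 5 clusters.

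The dermal sheath-like cluster was led by Ednrb, Itgbl1 (1877 and 2296 CPM), Adamts6 (576 and 779.6 CPM), Sema3a (421 and 740.3 CPM) and Tnmd, tenomodulin (217 and 298 CPM). Col11a1, a minor fibrillar collagen chain, was at 1808 and 2139 CPM, against 7.14 and 13.8 CPM in other fibroblasts. Acan, the proteoglycan aggrecan, was at 297 and 157 CPM against 0.194 and 0.423 CPM. Itga8, an integrin chain, was at 260.1 and 190.0 CPM and Actg2, enteric smooth muscle actin, at 588 and 409 CPM. Acta2, which the rule required, thus stood beside cartilage- or tendon-type matrix RNA, with Notch3 (0 and 22.9 CPM) and Des (0 and 13.1 CPM) low. Rgs5 was at 0 and 78.6 CPM, and 1 cell of mouse 2 held all 24 of its UMIs. Pdgfra, whose product CD140a was sorted against, was at 434 and 472 CPM.

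The Corin/Stmn2 cluster had a related but weaker sheath pattern with papilla-type genes. Corin, a serine protease known from the dermal papilla, was at 823 and 1166 CPM in this cluster and 341 and 256 CPM in the dermal sheath-like cluster, and a UMI was present in 85.0% and 87.3% and 59.1% and 60.0% of their cells, against 10.3% and 12.5% of all other cells. Stmn2, stathmin-2, was at 406 and 551 CPM against 223 and 91.7 CPM. Wif1, a secreted Wnt inhibitor, was at 337 and 724 CPM, and Actg2 at 445 and 430.2 CPM. Col11a1 was at 877 and 930.1 CPM, lower than in the dermal sheath-like cluster in both mice. The 12 papilla genes together were at 1602 and 2649 CPM, above every other cluster, against 517 and 671 CPM in all other cells. Corin alone made 823 and 1166 CPM of these sums. The Timp1/Postn cluster was next in mouse 1 at 865 CPM, so that the order there rested on Corin. Rspo3 (19.7 and 18.7 CPM) and Sox2 (2.46 and 1.70 CPM) were low. The dermal sheath list was at 3330.2 and 2857 CPM, second to the 4825 and 4812 CPM of the dermal sheath-like cluster. With 1 gene of each list among its 10 leading genes (Corin and Stmn2), the cluster was given no cell type. These clusters were not compared across all genes, and with 10 components in the clustering they formed 1 cluster of 154 cells.

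The Csn3/Lcn2 cluster was the largest of the 9. Csn3, kappa-casein, was at 468 CPM (425 to 514) and 825 CPM (778 to 874), and Lcn2, lipocalin-2, at 717 and 622 CPM. Sox10, a transcription factor of neural crest and of some glandular epithelia, was at 118 and 135 CPM, with a UMI in 65.5% and 83.3% of the cells against 1.83% and 1.91% of all other cells. Itga6, an integrin chain of basal epithelial cells, was at 472 and 494 CPM. Krt17 was at 314 and 361 CPM, below its level in all other cells in both mice. The 8 keratinocyte markers other than Krt5 and Krt14, which the rule had limited, were together at 1226 and 1537 CPM, against 2014 and 1745 CPM in all other cells. Cda, cytidine deaminase, was at 196 and 176 CPM. Epithelial genes, Sox10 and contractile genes were thus found in 1 cluster, with Rgs5, Notch3 and Pdgfrb low, and no marker list gave it a name.

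The keratinocyte-like cluster held Krt15 at 2904 and 2893 CPM, Krt17 at 2584 and 2348 CPM, Trp63, the epithelial p63, at 797 and 802 CPM and Lgr5, a hair follicle stem cell gene, at 430.2 and 580.3 CPM. A Krt15 UMI was present in 97.4% and 98.7% of its cells. They had passed because the keratin limit counts Krt5 and Krt14, which stood at 565 and 539.7 and 171 and 187 CPM. Their neighbours beyond that limit, 332 and 284 cells that met the rest of the rule, held Krt15 at 3153 and 2716 CPM, Krt17 at 2970 and 2643 CPM and Lgr5 at 427 and 519 CPM, and 7 and 8 of them had an Rgs5 UMI. They differed in Myh11, found in 56 and 35 of them at 133 and 123 CPM, against 3 and 2 cells and 24.4 and 2.32 CPM in the keratinocyte-like cluster, and in Cnn1, at 91.4 and 94.1 against 2.44 and 4.64 CPM. The neighbours also held Csn3 at 60.9 and 34.7, Lcn2 at 108 and 102 and Sox10 at 17.6 and 11.5 CPM, all leading genes of the Csn3/Lcn2 cluster. Whether the cells with Myh11 were those with Csn3 was not tested. In the keratinocyte-like cluster Acta2 was at 1276 and 1068 CPM and Myl9 at 332 and 252 CPM, with Mylk at 4.89 and 31.3 CPM, and 21.1% and 3.95% of its cells were called doublets.

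The Timp1/Postn cluster made most of the collagen class. Timp1, an inhibitor of metalloproteinases, was at 900.2 and 984 CPM, Postn, periostin, at 4122 and 3643 CPM and Fn1, fibronectin, at 3836 and 3678 CPM. Crabp1, a retinoic acid-binding protein of some dermal cells, was at 568 and 242 CPM, and Lum, lumican, at 2038 and 2055 CPM. Acta2 and Tagln were the lowest of the clusters in mouse 2 at 775 and 596 CPM, and Mylk was at 79.9 and 64.7 CPM. The fibroblast-like cluster held Clec3b, a fibroblast gene, at 1488 and 970.1 CPM against 143 and 96.7 CPM in the Timp1/Postn cluster. It also held Krt15 at 751 and 544 CPM, Rgs5 at 71.8 and 65.2 CPM and Myh11 at 238 and 158 CPM. Of its Rgs5 UMIs, 1 cell held 33 of 50 in mouse 1 and 1 cell 26 of 54 in mouse 2. In the fibroblast-like cluster 27 of 38 and 14 of 33 cells (71.1% and 42.4%) were called doublets, and it held 30 of the 61 cells that met both class conditions. The Pax7 cluster of 5 and 10 cells had Pax7 at 345 and 442 CPM with Des at 432 and 375 CPM and Notch3 at 302 and 255 CPM, and Myf5 and Chodl among its leading genes.

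Among the gene lists, the Rgs5/Myh11 class was higher than the collagen class in many contractile and mural genes and lower in many matrix genes. These lists hold only part of the genes counted here. Of 9944 genes compared, 601 (6.04%) were at least 2-fold higher and 648 (6.52%) at least 2-fold lower in both mice. The median log2 ratio of all genes was 0.02 and 0.03. Rgs5, Myh11 and the collagens had been used to form the classes, so nothing is read from their part in the counts.

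Of the contractile list without Acta2, Tagln and Myh11, 12 of 23 genes were higher and none lower, with a median log2 ratio of 1.60 and 1.22. Cnn1 was at 242 and 196 CPM against 4.24 and 1.40 CPM and Myl9, the regulatory light chain, at 2094 and 1512 against 233 and 219.5 CPM. Mylk was at 837 and 638 against 139 and 197 CPM. Of the pericyte list without Rgs5, 10 of 13 were higher and none lower, Notch3 at 230.0 and 213 against 8.48 and 9.79 CPM and Gucy1a1 at 239 and 224 against 14.1 and 8.85 CPM. Of the smooth muscle list without Myh11, 8 of 10 were higher and none lower. For each of these genes with levels given, both values of the Rgs5/Myh11 class lay above both values of the collagen class.

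Relaxation, ion channel and Notch genes stood on the side of the contractile genes. Of 6 genes of cyclic GMP signalling, 4 were higher (Gucy1a1, Gucy1b1, Prkg1 and Pde3a), with Prkg1, the cGMP-dependent kinase, at 704 and 917 against 109.6 and 176 CPM. Of 10 ion channel and calcium handling genes compared, 6 were higher (Abcc9, Kcnmb1, Pln, Ryr2, Trpc6 and Ano1) and none lower. Of 9 Notch pathway genes compared, 5 were higher, the receptor Notch3, the ligand Jag2 and the targets Hes1, Hey2 and Nrarp. Of 6 PDGF pathway genes, the ligands Pdgfa (271 and 306 against 28.3 and 13.0 CPM), Pdgfb and Pdgfc were higher and the receptor Pdgfra (32.5 and 33.6 against 300.4 and 332 CPM) lower. The receptors for vasoactive signals were divided, with Adra1a, Adra2a, Avpr1a and Ramp1 higher and Ednra, Ednrb, F2r and Calcrl lower among 13 compared. Ednrb was at 64.0 and 109.9 against 184 and 492 CPM.

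Because the Rgs5/Myh11 class mixed clusters, its levels depended on which cells were counted. In its cells with an Rgs5 UMI Notch3 was at 691 and 521 CPM and in those without one at 86.8 and 64.2 CPM. Csn3 was at 9.15 and 106 and 199 and 528 CPM in the same order, and Acta2 at 7434 and 4378 and 6622 and 6042 CPM. Counted with the Rgs5 cells alone, 487 genes were higher than in the collagen class, of which 264 were among the 601. Counted with the cells without Rgs5, 529 were higher, of which 444 were among the 601. The cells with Rgs5 held 218577 and 641186 UMIs and those without 703082 and 1324614, against 921659 and 1965800 in the whole class. The filter on low counts therefore need not pass all 9944 genes compared for the whole class. The 487 and 529 are thus not shares of those genes, and they are not set against each other. Among the 10 genes furthest up in the whole class were Sncg (gamma-synuclein) at 213 and 213 CPM against 0 and 0.932 CPM, Il17b (a cytokine) at 495 and 346 CPM against 16.3 and 3.26 CPM, Mia at 317 and 201 CPM against 9.19 and 1.40 CPM and Rgs4 (a G protein regulator) at 142 and 106 CPM against 0 and 0.466 CPM. They came from different clusters. Sncg was at 773 and 751 CPM in smooth muscle-like cells. Rgs4 was at 469.9 and 396 CPM in smooth muscle-like cells and at 0 and 0 CPM in the Csn3/Lcn2 cluster, whereas Mia was among the leading genes of the Csn3/Lcn2 cluster at 532 and 325 CPM. The 10 keratinocyte markers summed to 851 and 1812 CPM in the cells with Rgs5 and 1914 and 1826 CPM in those without, and Trp63, Cdh1, Dsp and Perp were among the genes higher in the class.

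Matrix genes were lower in the Rgs5/Myh11 class. Leaving out Col1a1, Col1a2, Col3a1 and Dcn, which formed the classes, 15 of 20 fibrillar and interstitial matrix genes were lower and none higher, with a median log2 ratio of -2.31 and -2.28. Timp1 was at 10.8 and 8.65 CPM against 681 and 773 CPM, Ptgis, prostacyclin synthase, at 2.17 and 3.05 CPM against 257 and 290.3 CPM and Lum at 87.9 and 125 CPM against 1602 and 1610.4 CPM. Of 16 basement membrane genes, 3 were higher (Col4a5, Lama3 and Lama5) and 5 lower (Col15a1, Lama2, Nid1, Nid2 and Sparc). Of 9 fibroblast markers other than Dcn 7 were lower. Of the dermal sheath list, Ramp1 and Mylk were higher and Tnmd, Stmn2, Abi3bp and Acan lower among 9.

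**Figure D5:**
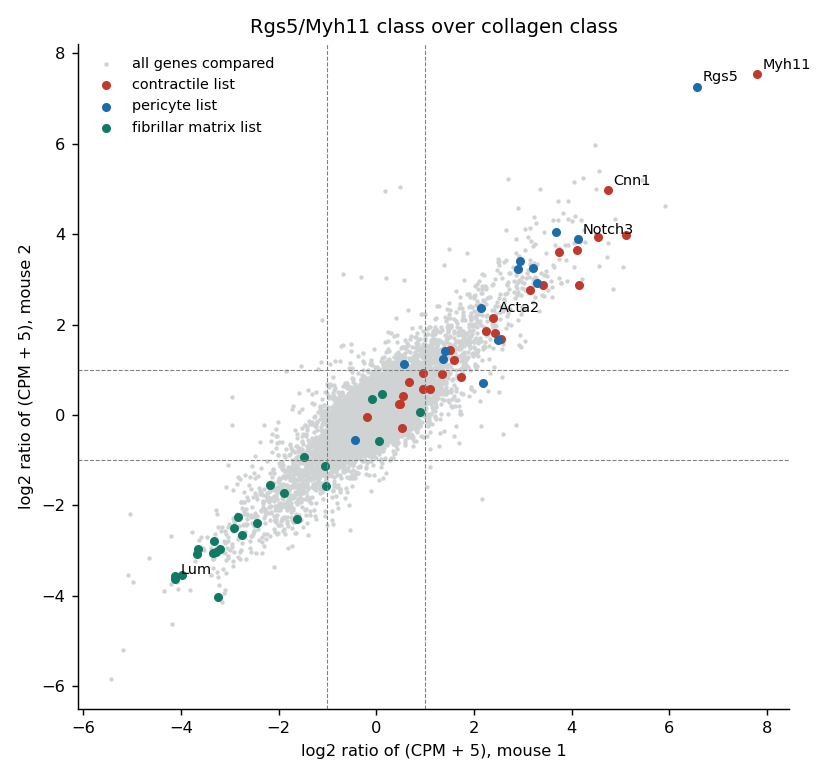
Each point is a gene, with the log2 ratio of CPM + 5 of the Rgs5/Myh11 class over the collagen class in mouse 1 (horizontal) and mouse 2 (vertical); dashed lines mark 2-fold. Contractile genes (red) and pericyte genes (blue) lie to the upper right and fibrillar matrix genes (green) to the lower left, with Rgs5 and Myh11, which formed the classes, furthest out.

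The collagen class was also set beside the other fibroblasts of the same libraries. These were shallower, with medians of 8907 and 11419 UMIs against 13619 and 14985 in the collagen class. The part of depth in the comparison was not tested. Of 15941 genes compared, 320 (2.01%) were at least 2-fold higher and 368 (2.31%) at least 2-fold lower in both mice, with median log2 ratios of 0.05 and 0.09 over all genes. Of the dermal sheath list 7 of 9 were higher (Itga8, Tnmd, Ramp1, Stmn2, Col11a1, Acan and Mylk) and none lower. Ednrb led the named genes at 184 and 492 CPM against 5.41 and 10.2 CPM, with mouse 2 well above mouse 1 and a mean of both mice of 338 CPM that became 646 CPM when CPM was averaged over cells. It was followed by Col11a1 at 186 and 351 CPM against 7.14 and 13.8 CPM and Tpm2 at 501 and 528 CPM against 39.1 and 39.2 CPM. Nes, nestin, was at 149 and 160.3 CPM against 8.71 and 11.7 CPM and Tnc, tenascin-C, at 192 and 339 CPM against 18.6 and 33.6 CPM. Lrrc15, a membrane protein of activated fibroblasts, was at 226 and 320.1 CPM against 29.3 and 41.7 CPM. The keratinocyte markers Krt15 (368 and 181 against 41.8 and 29.5 CPM) and Krt17 (493 and 146 against 72.3 and 53.3 CPM) were higher as well, and the 10 markers of that list summed to 1415 and 719 against 516 and 435 CPM. The part of keratinocyte RNA in the comparison was not tested. All of these values were higher in the collagen class in both mice, without overlap. They were carried by different cells of the class. In the Timp1/Postn cluster, which held 120 of the 217 cells, Ednrb was at 3.20 and 5.02 CPM, Stmn2 at 0 and 1.88 CPM, Acan at 0 and 0.628 CPM and the whole dermal sheath list at 311 and 246 CPM, below the 439 and 607 CPM of other fibroblasts. The list was at 4825 and 4812 CPM in the dermal sheath-like and 3330.2 and 2857 CPM in the Corin/Stmn2 cluster, which gave the class 33 and 21 cells. Tnc went the other way, at 252 and 452 CPM in the Timp1/Postn and 12.4 and 26.2 CPM in the dermal sheath-like cluster, while Tpm2 was at 476 and 434 and 1418 and 1159.6 CPM. Of the contractile list without Acta2, Tagln and Myh11, 10 of 23 were higher and none lower, with a median log2 ratio of 0.78 and 1.14. Ednra, at 205 and 276 against 29.2 and 52.3 CPM, F2r and Ramp1 were the other vasoactive receptors that were higher, among 16 compared.

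Of 9 fibroblast markers other than Dcn, 4 were lower in the collagen class (Dpt, Pi16, Clec3b and Fbln1) and none higher. Pdgfra was at 300.4 and 332 against 300.1 and 425 CPM. Opcml, an adhesion molecule, was at 159 and 147 CPM against 981 and 984 CPM, Ly6c1 at 158 and 151 CPM against 885 and 843 CPM and Dpp4, a dipeptidase of some dermal fibroblasts, at 71.4 and 58.7 CPM against 367 and 349 CPM. Haemoglobin RNA (Hbb-bs) was at 89.1 and 71.8 CPM against 741 and 358 CPM. Leaving out Col1a1, Col1a2, Col3a1 and Dcn, which defined both groups, 2 of 20 fibrillar matrix genes were higher (Col11a1 and Tnc) and 2 lower (Eln and Fbn1). The dissociation genes Fosb, Atf3 and Dusp1 were lower among 13 of that list, and Myh4, a fast muscle myosin, was higher. In the Timp1/Postn cluster Myh4 was at 347 and 53.4 CPM and 1 cell held 19.6% and 37.6% of its UMIs.

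Against all other cells that passed, the Rgs5/Myh11 class had 615 of 18533 genes (3.32%) at least 2-fold higher and 536 (2.89%) at least 2-fold lower in both mice. Leaving out Acta2, Tagln, Myh11 and Rgs5, which chose the cells or the class, 18 of 23 contractile genes were higher and none lower, with a median log2 ratio of 2.82 and 2.73. All 10 smooth muscle genes, 10 of 13 pericyte genes and all 6 cyclic GMP genes were higher. Myl9 was at 2094 and 1512 CPM against 74.7 and 48.9 CPM, Lmod1 at 194 and 179 CPM against 1.45 and 1.34 CPM and Tinagl1, a basement membrane protein, at 369.9 and 307 CPM against 3.85 and 5.58 CPM. Lbhd2, at 254 and 207 CPM against 2.40 and 2.14 CPM, and 1600014C10Rik, at 623 and 496 CPM against 12.6 and 12.1 CPM, were leading genes of the Csn3/Lcn2 cluster. Of 15 integrin chains 6 were higher, with Itga1 at 728 and 931 CPM in pericyte-like cells and Itga6 highest in the Csn3/Lcn2 cluster. Of 26 transcription factors, 25 were compared and 7 were higher, among them Myocd, Foxs1 and Tbx2, and 4 lower (Hic1, Prrx2, Twist2 and Klf4). Foxs1 was at 142 and 199 CPM in smooth muscle-like and 108 and 75.1 CPM in pericyte-like cells, while Tbx2 was at 245 and 195 CPM in the former and 16.5 and 45.0 CPM in the latter.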

How the data were processed

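Single-cell RNA-seq counts of AnaVI back skin from 2 mice (10x Genomics 3' V3) were used. The authors deposited raw UMI counts per gene and barcode, made with Cell Ranger 7.0.1 on mm10 per the submitters' processing notes. The doublet and free-RNA removal described for the study is not in these deposited counts. Cells were filtered, gated by the rule and summed per mouse and class or cluster in Python 3.11.15, with CPM of summed UMIs as the level. Clusters came from Leiden clustering in scanpy 1.11.5 (2000 variable genes, 20 components, 15 neighbours, resolution 0.5, seed 11) and were named from marker lists. Comparisons of groups used the log2 ratio of CPM + 5 within each mouse, for genes with at least 20 UMIs over both groups in each mouse, and counted genes at least 2-fold apart the same way in both mice. No p-value was computed. Outside the lists, the genes named are the 10 furthest in each direction with at least 100 CPM in the higher group of both mice. In the comparison with all other cells this was done for the higher direction only, and other genes named in the text are leading genes of a cluster. The members, lists and comparisons were chosen with earlier results of these data known. Doublets were called with Scrublet and removed only as an alternative. TMM factors came from edgeR 4.0.16. The comparison script was checked on simulated counts with known folds. Depth was a median of 9368 and 11646 UMIs per contractile cell, so that 1 UMI in the pericyte-like cluster is worth 8.27 and 5.01 CPM. Promoter sequences are from RefSeq (GRCm38.p6). Of the other samples, only the cultured cells were used, to count cells that met the rule, and some genes are not reported here.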

Additional observations from a re-analysis of the deposited data

How the results depend on the processing

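No direction turned in the 500 alternative values of the 43 genes furthest up or down in the class comparisons (50 gene and comparison pairs). These genes were picked as at least 2-fold the same way in both mice. Other pseudocounts or leaving out 1 mouse therefore could not turn a direction, and part of the 500 values came from such settings. So did all 80 values of the 20 genes of the smooth muscle-like and pericyte-like pair, and nothing is read from them. Of 735 alternative values in all, 446 stayed within the limit set, such as the spread between mice, and 289 moved. No paired analysis was fitted because no test was run, although ratios were taken within each mouse. With the keratin limit at 0.5% the contractile cells rose in number from 792 to 1389 and those meeting neither class condition from 243 to 723. A collagen limit of 0.5% gave 113 cells meeting both conditions in place of 61, and one of 2% gave 40 and a collagen class of 132 in place of 217. Without called doublets 39 cells met both, and Acta2 in the collagen class was at 1331 CPM in place of 1265 (mean of both mice). Averaging CPM over cells in place of summing UMIs gave, in the Rgs5/Myh11 class, 7306 for Acta2 (summed 6156), 4313 for Tagln (3347), 1003 for Rgs5 (618) and 1366 for Myh11 (1016), and in the collagen class 1714 for Acta2, 988 for Tagln (796) and 646 for Ednrb (338).

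Counts of genes moved with the pseudocount and the number of mice required. Between the Rgs5/Myh11 and collagen classes a pseudocount of 20 gave 367 higher and 397 lower. Between the collagen class and other fibroblasts a pseudocount of 1 gave 549 and 690 and one of 20 gave 145 and 184. Against all other cells a pseudocount of 1 gave 1109 lower and one of 20 gave 338 higher and 284 lower. Without the filter on low counts the smooth muscle-like cluster had 524 genes higher and 601 lower than the pericyte-like one. Those are counts over more genes than the 2970 compared with the filter. With 1 mouse left out each time, the cells numbered 349 to 443 in all, 111 to 160 in the Rgs5/Myh11 class, 99 to 118 in the collagen class, 27 to 34 in both and 112 to 131 in neither. The genes then numbered 852 to 1060 higher in the Rgs5/Myh11 than the collagen class, 509 to 541 higher and 553 to 594 lower in the collagen class than other fibroblasts, 852 to 860 lower in the Rgs5/Myh11 class than all other cells, and 345 to 539 higher and 385 to 456 lower in the smooth muscle-like than the pericyte-like cluster. Fewer mice have to pass in these counts, for the filter on low counts as well as for the fold. The comparison of these clusters and the splits of the Rgs5/Myh11 class by Rgs5 were chosen after seeing the data.

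Clustering gave 13 clusters at resolution 1.0 and 8 with 10 components in place of 9. At resolution 1.0 the Timp1/Postn, Csn3/Lcn2, fibroblast-like and keratinocyte-like clusters each divided in 2, with 60.4%, 69.8%, 60.6% and 83.3% of their cells in the larger piece, and with 10 components the Timp1/Postn cluster did (75.4%). With 10 components the dermal sheath-like and Corin/Stmn2 clusters fused into 1 of 154 cells, and part of the Timp1/Postn cluster joined the fibroblast-like one (29.7% of the 111 cells). The pericyte-like and smooth muscle-like clusters stayed apart, each making up at least 96.0% of the cluster it fell in under both settings. Small clusters limit low genes, since 3 UMIs are 24.8 and 15.0 CPM in the pericyte-like cluster and 129.5 and 40.2 CPM in the Pax7 cluster. With 2 mice the spread between animals is poorly known.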

Other observations

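The list of 10 cell cycle genes summed to 235 and 267 CPM in smooth muscle-like and 155 and 151 CPM in dermal sheath-like cells, and to 1006 and 1444 CPM in the Csn3/Lcn2 cluster, beside 1105 and 886 CPM in all other cells. It summed to 1002 and 851 CPM in the keratinocyte-like, 173 and 2266 CPM in the small Pax7 and 149 and 501 CPM in the pericyte-like cluster. The Corin/Stmn2, Timp1/Postn and fibroblast-like clusters had 587 and 306, 317 and 387 and 478 and 487 CPM. Col4a1, a basement membrane collagen chain, was at 1150.1 and 1662 CPM in pericyte-like, 719 and 1075 CPM in smooth muscle-like and 1165 and 1324 CPM in Csn3/Lcn2 cells, against 524 and 759 CPM in other fibroblasts.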
